A study of Bos taurus with 2 samples.

Results

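The genes described here are 6 pluripotency factors: NANOG, PRDM14, KLF17, SOX2, SALL4 and DPPA4. They were chosen by symbol, and all 6 were matched in the feature lists of both libraries, among 35643 features. Their levels, detection and co-detection were measured per nucleus in bovine (Bos taurus) blastoids and embryos by droplet single-nucleus RNA sequencing, which counts unique molecular identifiers (UMIs), each standing for a captured transcript. The blastoid group was 1 library, of wild-type genotype, from blastocyst-like structures aggregated in microwells. Each microwell received 8 bEPSC (expanded potential stem), 8 bXEN (extraembryonic endoderm) and 16 bTSC (trophoblast stem) cells, in ACL medium with LIF, activin A and CHIR99021 and with the CEPT cocktail of survival factors. The blastocyst group was 1 library, also of wild-type genotype, from embryos at day 8. Nuclei came from frozen material in both cases. The number of blastoids or embryos behind a library is not in the labels, iMEF feeder cells were reduced by plating on gelatin before aggregation, and the time of blastoid culture is not analysed here.

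In a blastocyst, the inner cell mass divides into the epiblast, which forms the embryo proper, and the hypoblast, which lines the yolk sac, while the trophectoderm forms the outer layer and the placenta. NANOG and SOX2 are transcription factors of the epiblast that work with POU5F1, and SOX2 is also a factor of neural progenitors. PRDM14 and KLF17 are zinc finger regulators associated with the naive state of pluripotency and, for PRDM14, with germ cells. SALL4 is a zinc finger factor needed for growth of the inner cell mass, and DPPA4 is a chromatin-binding protein that works with its neighbour DPPA2 at developmental promoters.

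The blastoid library held 1957 barcodes and 7575395 UMIs, and the blastocyst library 944 barcodes and 7029253 UMIs. After filtering, 1914 and 827 barcodes were kept, and 1 barcode sequence occurred in both libraries. Depth set the libraries apart: 1628 kept blastoid barcodes lay under 4000 UMIs, with a median of 15.8% of UMIs from ribosomal protein genes, against 139 kept blastocyst barcodes with a median of 2.83%. Levels and detection were therefore read in nuclei of at least 4000 UMIs, which were 286 of blastoids (4300469 UMIs, median 13070 per nucleus) and 688 of blastocysts (6577990 UMIs, median 8591.5). A level is given as UMIs of the gene per 1000000 UMIs of the summed nuclei (CPM). With 1 library per group no test was possible, and every interval is a 95% interval that covers counting error only. Ratios therefore compare these libraries, not the conditions.

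NANOG, PRDM14 and KLF17 were nearly absent from the blastoid nuclei and present in the blastocyst nuclei. SALL4 and DPPA4 were present in both libraries and lower in the blastoid one, and SOX2 was at a like level in both. In all, 5 of the 6 genes were at least 2-fold lower in the blastoid library, where 15.2% of the 18414 genes with at least 10 UMIs were. None of the 6 was at least 2-fold higher, against 21.9% of those genes. The median log2 ratio of blastoid over blastocyst was -3.42 over the 6 genes and 0.04 over all genes. Markers of cell types differed between the same nuclei. The hypoblast factors GATA6 (69.3 against 779 CPM) and HNF4A (17.2 against 349 CPM) were 11.2-fold and 20.3-fold lower in the blastoid library. The neuronal genes DCC (1137 against 8.97 CPM) and CTNNA2 (1088 against 10.3 CPM) were 127-fold and 105-fold higher. The part of the cell type mix in the library-wide ratios was not tested, and like clusters are compared further on.

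NANOG (ENSBTAG00000020916), the homeodomain factor of the epiblast, had 5 UMIs in the blastoid nuclei (1.16 CPM, interval 0.378 to 2.71) and 164 in the blastocyst nuclei (24.9 CPM, 21.3 to 29.1). Its level was 21.4-fold lower in the blastoid library (9.004 to 66.9), and over all kept barcodes, with 16 against 178 UMIs, 12.1-fold lower (7.27 to 21.7). PRDM14 (ENSBTAG00000000060) had 2 UMIs (0.465 CPM) against 243 (36.9 CPM), a ratio of 79.4-fold with a wide interval of 21.8 to 660. KLF17 (ENSBTAG00000047871) had 1 UMI (0.233 CPM) against 60 (9.12 CPM), a ratio of 39.2-fold with an interval of 6.78 to 1575. Over all kept barcodes the KLF17 counts were 1 and 65, a ratio of 70.9-fold (12.3 to 2842). For these 3 genes the intervals of the libraries did not overlap, and the size of the ratio is poorly fixed because the blastoid counts were 1 to 5 UMIs.

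SOX2 (ENSBTAG00000063362) had 106 UMIs in the blastoid nuclei (24.6 CPM, 20.2 to 29.8) and 176 in the blastocyst nuclei (26.8 CPM, 22.9 to 31.0). The ratio was 0.921 and its interval of 0.717 to 1.18 spanned 1. SOX2 is the member whose comparison turned on depth. Over all kept barcodes its level was 43.8 CPM in the blastoid and 27.3 CPM in the blastocyst library, a ratio of 1.61 (1.34 to 1.94). In the blastoid library SOX2 stood at 56.3 CPM in barcodes under 2000 UMIs, 83.4 CPM from 2000 to 4000, 47.2 CPM from 4000 to 8000 and 22.8 CPM from 8000 UMIs. In the blastocyst library it stood at 61.3 CPM under 2000 UMIs (5 UMIs, 19.9 to 143), 29.7 CPM from 2000 to 4000 (6 UMIs, 10.9 to 64.7), 26.4 CPM from 4000 to 8000 and 26.9 CPM from 8000, with overlapping intervals. The shallow blastoid barcodes with the higher SOX2 level are also those rich in ribosomal protein UMIs, and the part of RNA quality or of cell type in that level was not tested.

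SALL4 (ENSBTAG00000003101) had 197 UMIs in the blastoid nuclei (45.8 CPM, 39.6 to 52.7) and 639 in the blastocyst nuclei (97.1 CPM, 89.8 to 105), and was 2.12-fold lower in the blastoid library (1.80 to 2.50). The interval of that ratio reaches below 2, so its place among the 5 genes rests on a narrow margin. DPPA4 (ENSBTAG00000038103) had 233 UMIs (54.2 CPM, 47.4 to 61.6) against 3123 (475 CPM, 458 to 492), and was 8.76-fold lower (7.67 to 10.1). Unlike SOX2, DPPA4 kept its gap at each depth: it stood between 29.1 and 55.5 CPM in the 4 depth ranges of the blastoid library and between 417 and 574 CPM in those of the blastocyst library.

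**Figure D1:**
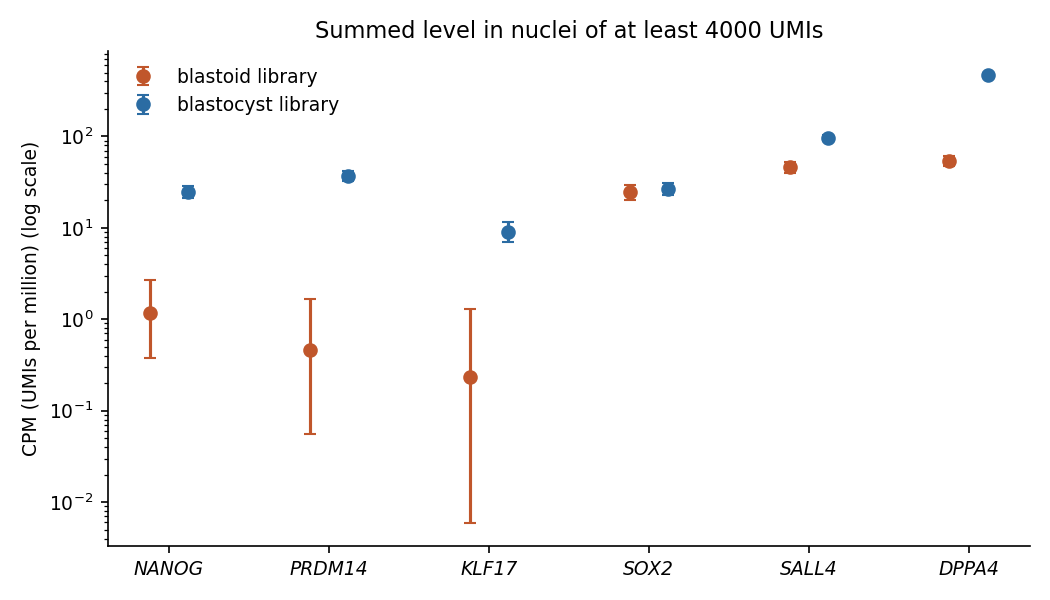
Level of the 6 genes in nuclei of at least 4000 UMIs, in CPM on a log axis, with points for each library and bars for the 95% counting interval. The libraries overlap for SOX2 (24.6 and 26.8 CPM) and are apart for the other 5 genes.

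Detection was compared after thinning each nucleus to 4000 UMIs, with the share at full depth beside it. NANOG was found in 1 of 286 thinned blastoid nuclei (0.350%; 4 nuclei, 1.40%, at full depth) and in 56 of 688 blastocyst nuclei (8.14%; 14.1% at full depth). PRDM14 was found in 0 of 286 blastoid nuclei, which allows up to 1.05% of nuclei with a UMI at that depth (3 counts of the total), and in 86 blastocyst nuclei (12.5%). At full depth PRDM14 was in 2 blastoid nuclei (0.699%, 0.0848 to 2.50) and in 21.8% of blastocyst nuclei (18.8 to 25.1). KLF17 was likewise found in 0 thinned blastoid nuclei and in 24 blastocyst nuclei (3.49%), and at full depth in 1 blastoid nucleus and in 51 blastocyst nuclei (7.41%). Most KLF17 nuclei held a single UMI (45 of 51), so its share is the most limited by depth of the 3.

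SOX2 was found in 24 thinned blastoid nuclei (8.39%, 5.45 to 12.2) and in 63 thinned blastocyst nuclei (9.16%, 7.11 to 11.6), shares with overlapping intervals. At full depth SOX2 was in 25.9% of blastoid and 17.9% of blastocyst nuclei, with the blastoid nuclei the deeper ones. The likeness of the thinned SOX2 shares depended on depth. With nuclei of at least 2000 UMIs thinned to 2000 instead, SOX2 was found in 11.1% of blastoid and 5.05% of blastocyst nuclei. SALL4 was found in 17.1% of thinned blastoid nuclei (13.0 to 22.0) and 33.1% of thinned blastocyst nuclei (29.6 to 36.8), and at full depth in 44.1% and 53.1%. DPPA4 was found in 12.9% of thinned blastoid nuclei (9.27 to 17.4) and 77.0% of thinned blastocyst nuclei (73.7 to 80.1), and at full depth in 37.1% and 89.4%. For DPPA4 both the share of nuclei and the count within a positive nucleus were lower in the blastoid library: at full depth, 265 blastocyst nuclei held 5 or more DPPA4 UMIs, with a highest count of 23, against 10 blastoid nuclei and a highest count of 15.

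Each library was then clustered on its own, without the 6 genes and without the listed marker, network and related genes. In the blastocyst library, 403 nuclei formed a hypoblast-like cluster with 7 of 17 hypoblast markers raised (among them GATA6, GATA4, PDGFRA and HNF4A), and 232 formed a trophectoderm-like cluster with 7 of 15 trophectoderm markers raised (among them GATA2, GATA3 and KRT8). The hypoblast-like cluster also had 2 epiblast markers raised, OTX2 (110 CPM, against 82.9 CPM in the HMGA2/GPC4 cluster described next) and DPPA3 (86.9 against 85.5 CPM), and whether epiblast nuclei are part of it was not tested. A cluster of 73 nuclei was led by GPC4 and HMGA2, and a shallow cluster of 119 barcodes, with a median of 1632 UMIs, was led by IFI6 and keratins. Both stay unnamed. The HMGA2/GPC4 cluster had 1 of 17 hypoblast markers raised, HNF4A (566 CPM), 1 epiblast marker, LIN28B, and 0 of 15 trophectoderm markers. Its hypoblast sum was 1935 CPM, against 2812 CPM in the hypoblast-like cluster, and GATA6 stood at 610 against 993 CPM. The shallow cluster had 5 of 15 trophectoderm markers raised (KRT8, KRT18, KRT19, SFN and PTGS2) and 0 of 17 hypoblast markers, with a trophectoderm sum of 8049 CPM against 3544 CPM in the trophectoderm-like cluster. In the blastoid library, 154 nuclei formed a trophectoderm-like cluster with 5 of 15 markers raised. A cluster of 141 nuclei, led by LMX1A and DCC, stays unnamed, as does a group of 1619 barcodes with a median of 1922 UMIs and 15.8% ribosomal protein UMIs. That ribosomal-rich group had 8 of 15 trophectoderm markers raised (among them CDX2, KRT8, KRT18 and KRT19), with a summed level of 12503 CPM against 4469 CPM in the trophectoderm-like cluster. GATA2 (141 against 335 CPM) and GATA3 (58.2 against 175 CPM) were lower in it than in that cluster. It also had 4 of 17 hypoblast markers raised (COL4A1, AFP, APOB and TTR), with a sum of 612 CPM against 473 CPM in the trophectoderm-like and 509 CPM in the DCC/LMX1A cluster. Its depth and ribosomal protein share kept it unnamed. No cluster of either library could be named for the epiblast by the rule used. At most 2 of the 12 epiblast markers in the files other than the members counted as raised in any cluster. Only markers with at least 100 UMIs in their library's kept barcodes could count. In the blastocyst library FGF4, ZIC2, NODAL, GDF3, ETV4 and ETV5 were below that. Of these, FGF4 (9.07 CPM), ZIC2 (20.7 CPM) and NODAL (5.18 CPM) were highest in the HMGA2/GPC4 cluster. GDF3 was highest in the shallow, ETV4 in the trophectoderm-like and ETV5 in the hypoblast-like cluster.

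NANOG set the HMGA2/GPC4 cluster of the blastocyst apart. It stood at 122 CPM there (98.4 to 149), 33.0 CPM in the shallow cluster (18.0 to 55.3), 19.9 CPM in the hypoblast-like cluster (15.5 to 25.3) and 1.30 CPM in the trophectoderm-like cluster (0.268 to 3.80). The intervals of the shallow and hypoblast-like clusters overlap. Of the 73 nuclei of the HMGA2/GPC4 cluster, 48 (65.8%) held a NANOG UMI, and this cluster, 8.83% of kept barcodes, held 52.8% of the library's NANOG UMIs. In the trophectoderm-like cluster, which should lack NANOG, 3 of 232 nuclei held a UMI (1.29%), with median depths of 8804 UMIs there and 10163 UMIs in the HMGA2/GPC4 cluster. After thinning the shares were 43.1% and 0.452%.

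PRDM14 was spread otherwise. Its level was 66.1 CPM in the HMGA2/GPC4 cluster (49.2 to 86.9), 55.7 CPM in the hypoblast-like cluster (48.0 to 64.2), 18.8 CPM in the shallow cluster and 2.60 CPM in the trophectoderm-like cluster (0.955 to 5.67). The first pair overlap, and 74.2% of the library's PRDM14 UMIs lay in the hypoblast-like cluster, the one in which OTX2 was raised as well. The 2 clusters thus had PRDM14 at a ratio of 1.19 (0.853 to 1.63) and NANOG at a ratio of 6.11 (4.42 to 8.48), HMGA2/GPC4 over hypoblast-like.

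KLF17 stood at 25.9 CPM in the HMGA2/GPC4 cluster (15.8 to 40.0), 10.7 CPM in the hypoblast-like cluster (7.50 to 14.8) and 0.868 CPM in the trophectoderm-like cluster, and the ratio of the first to the second was 2.42 (1.33 to 4.29). Against the hypoblast-like cluster, the HMGA2/GPC4 cluster had 2 of the 6 genes, NANOG and KLF17, at least 2-fold higher, where 6.6% of 14435 genes were. SOX2 (44.0 and 34.8 CPM, ratio 1.26, 0.837 to 1.87), SALL4 (135 and 101 CPM, ratio 1.33, 1.06 to 1.66) and DPPA4 (683 and 561 CPM, ratio 1.22, 1.10 to 1.34) differed by less than 2-fold between these clusters. In the shallow cluster SOX2 stood at 63.6 CPM (41.9 to 92.5), its highest level among the 4 blastocyst clusters, with an interval that overlaps that of the HMGA2/GPC4 cluster.

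The trophectoderm-like cluster of the blastocyst divided the 6 genes. NANOG, PRDM14, SOX2 and KLF17 were at least 2-fold lower there than in the hypoblast-like cluster, 4 of 6 genes where 19.2% of 15494 genes were. SOX2 stood at 3.90 CPM, 8.92-fold lower (4.54 to 20.0), and PRDM14 was 21.4-fold lower (9.64 to 59.0). SALL4 and DPPA4, in contrast, stood at 71.6 and 300 CPM there, 1.41-fold (1.17 to 1.71) and 1.87-fold (1.71 to 2.05) lower. DPPA4 UMIs were found in 188 of the 232 trophectoderm-like nuclei (81.0%) and SALL4 UMIs in 104 (44.8%).

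A finer clustering, at resolution 1.0, divided the hypoblast-like nuclei into clusters that differed in these genes, which had not entered the clustering. Its largest cluster (172 nuclei, median 6697 UMIs) had NANOG at 11.2 CPM (6.10 to 18.7), SOX2 at 22.3 CPM (14.8 to 32.2) and KLF17 at 3.98 CPM (1.29 to 9.30), with PRDM14 at 63.7 CPM. A second one (138 nuclei, median 8648 UMIs) had NANOG at 24.4 CPM (16.4 to 34.8), SOX2 at 46.3 CPM (35.1 to 59.97) and KLF17 at 11.4 CPM, with PRDM14 at 46.3 CPM. The third (91 nuclei, median 8850 UMIs) had NANOG at 25.5 CPM (16.0 to 38.7), SOX2 at 38.3 CPM (26.4 to 53.8) and KLF17 at 19.7 CPM (11.5 to 31.6), with PRDM14 at 59.2 CPM. SOX2 did not overlap between the first and second clusters, and KLF17 did not between the first and the third. DPPA4 was at 527 CPM (487 to 568), 647 CPM (603 to 694) and 496 CPM (450 to 545), with the second cluster apart from both others. For NANOG and PRDM14 the intervals of all 3 clusters overlapped. GATA6 was at 1106, 986 and 835 CPM and HNF4A, a hepatic and endodermal nuclear receptor, at 609, 577 and 408 CPM in these clusters.

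In the blastoid library, SOX2 and DPPA4 were the members that differed between all 3 clusters with no overlap of intervals. SOX2 stood at 70.2 CPM in the ribosomal-rich group (61.2 to 80.0), 43.2 CPM in the DCC/LMX1A cluster (34.3 to 53.6) and 9.92 CPM in the trophectoderm-like cluster (6.36 to 14.8). SOX2 UMIs were found in 52 of 141 DCC/LMX1A nuclei (36.9%, median depth 10924 UMIs) and in 22 of 154 trophectoderm-like nuclei (14.3%, median depth 14620 UMIs). After thinning the shares were 12.2% and 4.76%.

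DPPA4 had another order in the blastoid library. It was highest in the trophectoderm-like cluster, at 88.9 CPM (77.4 to 102) with UMIs in 90 of 154 nuclei, then 33.5 CPM in the ribosomal-rich group (27.4 to 40.5) and 10.0 CPM in the DCC/LMX1A cluster (6.02 to 15.6). DPPA4 was 8.89-fold lower in the DCC/LMX1A than in the trophectoderm-like cluster (5.55 to 15.0), while SOX2 was 4.35-fold higher (2.73 to 7.17). SALL4 stood at 55.8 CPM in the DCC/LMX1A cluster (45.7 to 67.5), 39.8 CPM in the ribosomal-rich group (33.2 to 47.4) and 37.6 CPM in the trophectoderm-like cluster (30.3 to 46.2), and the intervals of all 3 overlap. The direct SALL4 ratio of the DCC/LMX1A over the trophectoderm-like cluster was 1.48, with an interval of 1.11 to 1.99 that did not span 1.

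The ribosomal-rich group held 10 of the 16 NANOG UMIs of the kept blastoid barcodes (62.5%), in 9 of its 1619 barcodes, at 3.16 CPM (1.52 to 5.81). It also held 2 of the 4 PRDM14 UMIs and 0 of KLF17. The few blastoid nuclei of at least 4000 UMIs with NANOG, PRDM14 or KLF17 did not share a cluster or a set of markers. Of the 4 NANOG nuclei, 1 lay in the trophectoderm-like cluster and had 10 UMIs of GATA3, a trophectoderm factor. The other 3 lay in the DCC/LMX1A cluster, of which 1 had 22 UMIs of CTNNA2 and 19 of DCC, and another had 26 UMIs of HNF4A, 12 of GATA4 and 4 of GATA6 with 0 of DCC and CTNNA2. HNF4A had 74 UMIs in 9 nuclei over all 286. The PRDM14 UMIs lay in 1 DCC/LMX1A and 1 trophectoderm-like nucleus, and the KLF17 UMI in 1 trophectoderm-like nucleus. Over all kept barcodes, NANOG, PRDM14 and KLF17 each had 1 UMI in the trophectoderm-like cluster (0.413 CPM). NANOG had 5 UMIs in 4 nuclei of the DCC/LMX1A cluster by that count (2.63 CPM), 1 nucleus of them under 4000 UMIs. Its ratio over the trophectoderm-like cluster was 6.37, with an interval of 0.713 to 301 that spanned 1. The part of background RNA in these few UMIs was not tested.

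**Figure D2:**
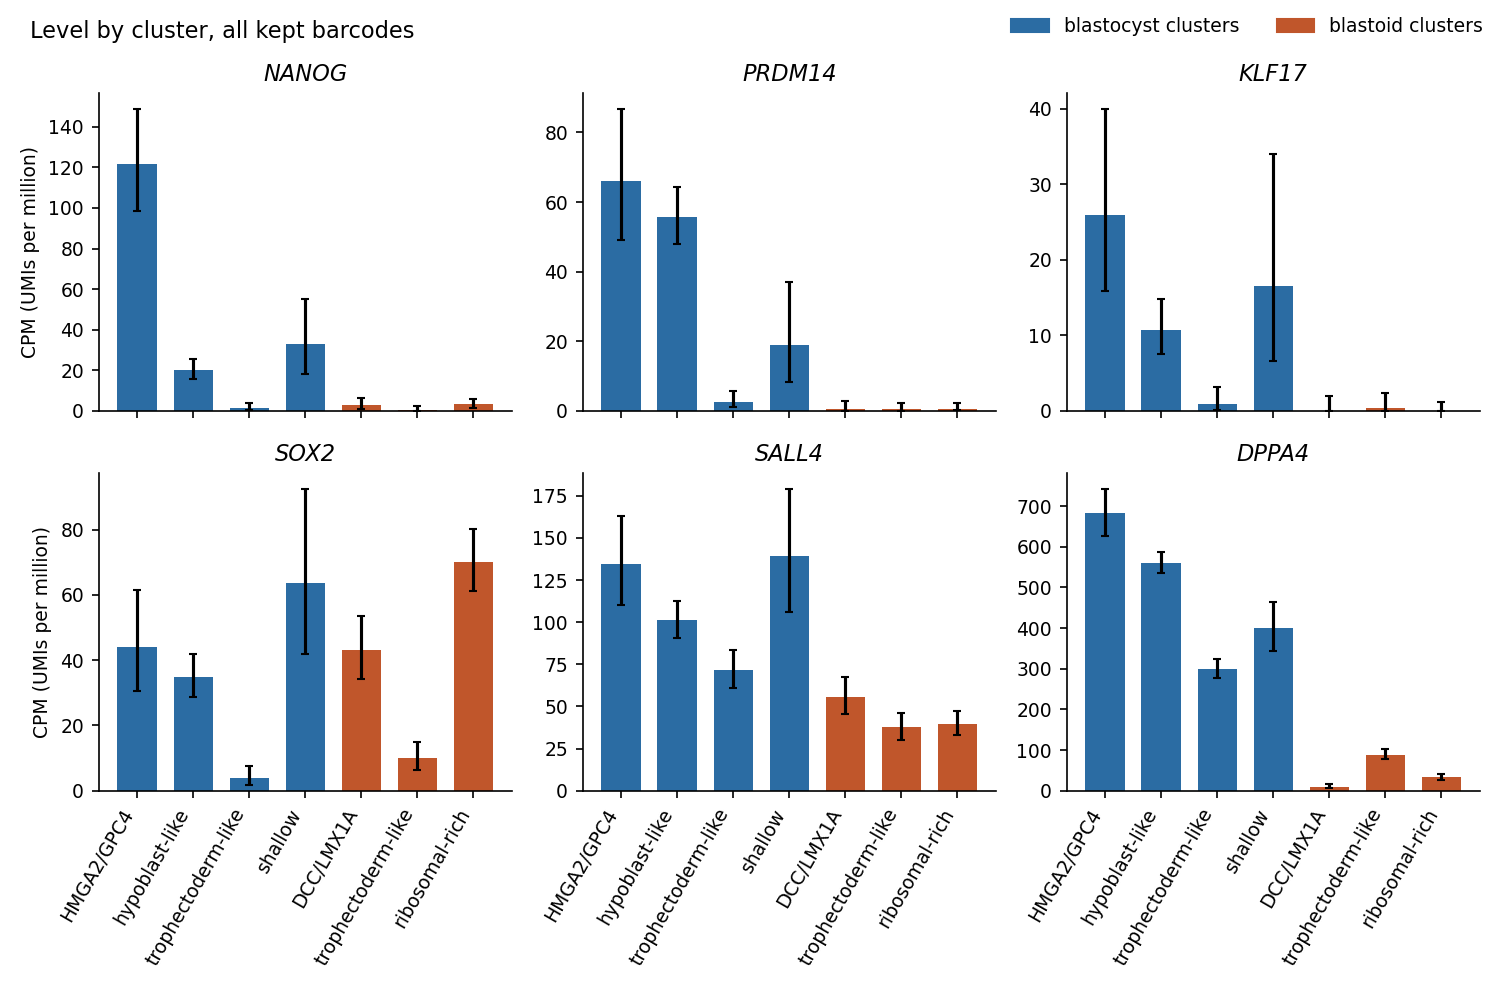
Level of each gene by cluster over all kept barcodes, in CPM from 0 with 95% counting intervals, on an axis of its own for each gene. NANOG peaks in the HMGA2/GPC4 cluster at 122 CPM, SOX2 is seen in the DCC/LMX1A cluster of the blastoid at 43.2 CPM, and DPPA4 is below 100 CPM in every blastoid cluster.

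Like clusters were compared between the libraries where that was possible. In the trophectoderm-like clusters, DPPA4 stood at 88.9 CPM in the blastoid and 300 CPM in the blastocyst, 3.37-fold lower (2.89 to 3.95), and SALL4 at 37.6 and 71.6 CPM, 1.90-fold lower (1.46 to 2.49). SOX2 had the other direction, at 9.92 and 3.90 CPM, a ratio of 2.54 (1.14 to 6.21) that rests on 24 and 9 UMIs. NANOG, PRDM14 and KLF17 had 1 to 6 UMIs in each and were not compared. With at least 10 UMIs in the summed pair, 3 of the 6 genes were counted, and 1 of them, DPPA4, was at least 2-fold lower, against 14.1% of 15006 genes, and 1, SOX2, at least 2-fold higher, against 20.7%.

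The blastoid DCC/LMX1A cluster and the blastocyst HMGA2/GPC4 cluster are set side by side because each held its library's highest LIN28B level (512 and 247 CPM), a choice made after the values were seen. HMGA2 was at 597 and 593 CPM in them. Of the 6 genes, 5 were at least 2-fold lower in the DCC/LMX1A cluster, against 16.6% of 14168 genes. DPPA4 was 68.2-fold lower (43.3 to 114), NANOG 46.3-fold lower (19.1 to 146) and SALL4 2.41-fold lower (1.82 to 3.19). PRDM14 had 1 UMI against 51, a ratio of 125-fold (21.5 to 5052), and KLF17 had 0 against 20, a ratio whose interval starts at 12.1-fold lower. SOX2 did not follow them, at 43.2 and 44.0 CPM with a ratio of 0.980 (0.650 to 1.51). The choice of partner bears on the count and on NANOG: against the hypoblast-like cluster, 4 of the 6 genes were at least 2-fold lower in the DCC/LMX1A cluster, where 19.9% of 16133 genes were. NANOG was then 7.58-fold lower (3.09 to 24.1), DPPA4 56.1-fold (35.8 to 93.4) and SALL4 1.81-fold (1.45 to 2.28), and the SOX2 ratio was 1.24 (0.923 to 1.66).

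Co-detection asks whether the genes occur in the same nuclei. At full depth 442 of 688 blastocyst nuclei (64.2%, 60.5 to 67.8) and 87 of 286 blastoid nuclei (30.4%, 25.1 to 36.1) held UMIs of at least 2 of the 6 genes. After thinning the shares were 42.2% (38.4 to 45.9) and 3.50% (1.69 to 6.34), and with a second random draw of the thinning they were 39.7% and 5.94%. These shares depend on how often each single gene was found. DPPA4 was in 77.0% of thinned blastocyst and 12.9% of thinned blastoid nuclei, and SALL4 in 33.1% and 17.1%. The share that single-gene detection alone would give was not computed. No blastoid nucleus held more than 3 of the genes at full depth, and 13 held 3. In the blastocyst library 59 nuclei held 4, 19 held 5 and 3 held all 6, and each of those 3 lay in the HMGA2/GPC4 cluster.

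**Figure D3:**
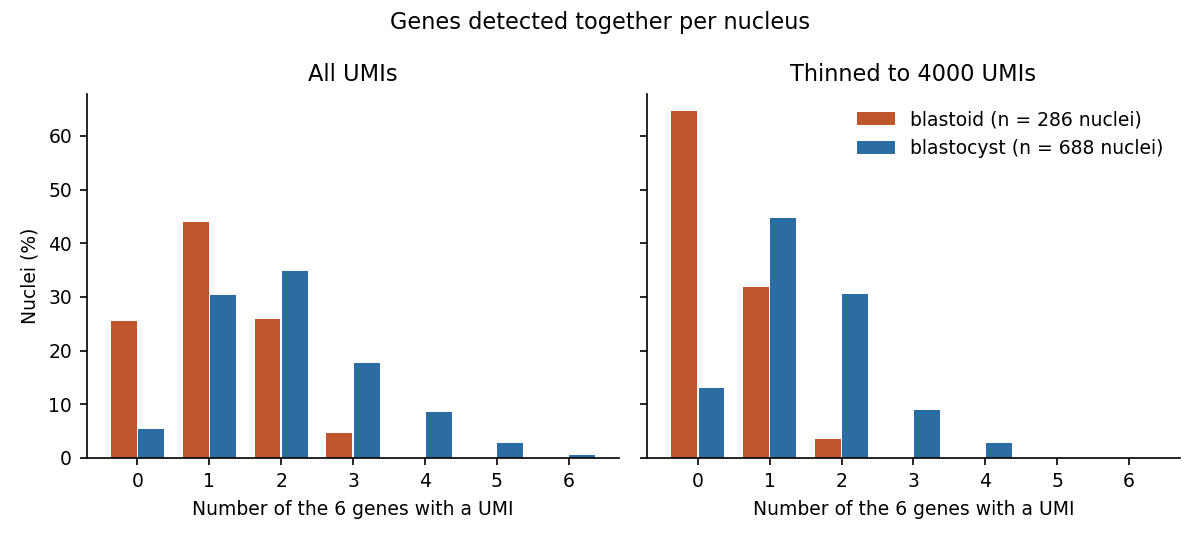
Share of nuclei (in percent) by how many of the 6 genes had a UMI, at full depth and after thinning to 4000 UMIs, with a bar for each library. Blastoid nuclei reach 3 genes at most, while 3 blastocyst nuclei hold all 6.

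NANOG and PRDM14 were found together in 36 blastocyst nuclei, of which 25 lay in the HMGA2/GPC4 and 11 in the hypoblast-like cluster, and in 0 blastoid nuclei. SOX2 joined both in 16 of the 36. Over the whole blastocyst library PRDM14 was in 37.1% of the 97 NANOG nuclei (27.5 to 47.5) and 19.3% of the others (16.2 to 22.7). Within clusters that gap was not shown: in the hypoblast-like cluster the shares were 25.6% of 43 NANOG nuclei (13.5 to 41.2) and 29.3% of the others, and in the HMGA2/GPC4 cluster 52.1% of 48 (37.2 to 66.7) and 33.3% of 24 others (15.6 to 55.3), with overlapping intervals. NANOG nuclei were also the deeper ones, with a median of 9731 UMIs against 8354, and after thinning the library-wide shares were 19.6% (10.2 to 32.4) and 11.9% (9.45 to 14.7), which overlap.

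SOX2 was in 36.1% of the blastocyst NANOG nuclei (26.6 to 46.5) and 14.9% of the others (12.1 to 18.0), and after thinning in 12.5% (5.18 to 24.1) and 8.86% (6.76 to 11.4). Within clusters the SOX2 intervals overlapped, at 30.2% (17.2 to 46.1) and 20.4% (16.1 to 25.2) in the hypoblast-like and 41.7% (27.6 to 56.8) and 16.7% (4.74 to 37.4) in the HMGA2/GPC4 cluster at full depth. SOX2 and SALL4 kept a gap after thinning: SALL4 was in 52.4% of SOX2 nuclei (39.4 to 65.1) and 31.2% of the others (27.6 to 35.0), and within the hypoblast-like cluster in 51.2% (35.5 to 66.7) and 29.6% (24.7 to 34.9). KLF17 was in 19.6% of NANOG nuclei (12.2 to 28.9) and 5.41% of the others (3.73 to 7.56) at full depth, with 13 of the 19 nuclei that held both in the HMGA2/GPC4 cluster. Inside that cluster the KLF17 shares were 27.1% (15.3 to 41.8) and 25.0% (9.77 to 46.7), which overlap. After thinning, NANOG and KLF17 met in 4 nuclei, too few to read a difference.

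In the blastoid library SOX2, SALL4 and DPPA4 were frequent enough to pair. DPPA4 was in 29.7% of the 74 SOX2 nuclei (19.7 to 41.5) and 39.6% of the others (33.0 to 46.5), and SALL4 was in 41.9% (30.5 to 53.9) and 44.8% (37.996 to 51.8). All these intervals overlap. Within clusters the order for DPPA4 differed: it was in 19.2% of 52 SOX2 nuclei (9.63 to 32.5) and 8.05% of the others (3.30 to 15.9) in the DCC/LMX1A cluster, and in 54.5% of 22 (32.2 to 75.6) and 61.6% of the others (52.5 to 70.2) in the trophectoderm-like cluster, again with overlapping intervals. At full depth NANOG and SOX2 met in 2 blastoid nuclei, against 35 blastocyst nuclei.

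Markers of other lineages moved with the genes. In the blastocyst library, the 15 trophectoderm markers summed to 464 CPM in NANOG nuclei and 1987 CPM in the others, to 470 and 2142 CPM for PRDM14, and to 504 and 2054 CPM for SOX2, with 2 or 3 of the 15 at 0 in each set. The 17 hypoblast markers summed to 2704 CPM in PRDM14 nuclei and 1819 CPM in the others, and to 2043 and 2026 CPM for NANOG, with 3 at 0 in each of these sets. GATA6, the factor that opens the hypoblast programme, was at 1001 CPM in PRDM14 nuclei and 710 CPM in the others, and at 654 and 802 CPM for NANOG. HNF4A was at 546 and 288 CPM for PRDM14 and at 553 and 311 CPM for NANOG. The 14 neural markers in the files summed to 781 CPM in NANOG nuclei and 447 CPM in the others, to 745 and 423 CPM for PRDM14, and to 652 and 462 CPM for SOX2, with 3 to 5 of the 14 at 0. The 12 epiblast markers other than the members differed less. They summed to 699 and 595 CPM for NANOG, 729 and 575 CPM for PRDM14, and 709 and 587 CPM for SOX2. NANOG and PRDM14 nuclei were alike in HNF4A and differed in the order of GATA6, and the part of nuclei from 2 lineages under a shared barcode in these sums was not tested.

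In the blastoid library the neural list moved with SOX2 as well, at a higher level. The 14 neural markers summed to 8183 CPM in the 74 SOX2 nuclei and 3356 CPM in the 212 others, with 2 and 3 of them at 0. The 12 epiblast markers summed to 593 and 502 CPM in these sets. DCC, an axon guidance receptor, was at 2264 and 682 CPM, and CTNNA2, a neuronal catenin, at 1876 and 770 CPM. The early neural factor SOX1 was at 0 in the DCC/LMX1A cluster and PAX6 was at 11.1 CPM there. HNF4A had 0 UMIs in the SOX2 nuclei and 24.2 CPM in the others, where its 74 UMIs lay in only 9 nuclei, 26 of them in 1 nucleus. DPPA4 nuclei had the reverse: neural markers summed to 1868 CPM against 7260 CPM in nuclei without DPPA4, and trophectoderm markers to 3886 against 2934 CPM. The part of these cell types in the SOX2 and DPPA4 levels was not tested.

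**Figure D4:**
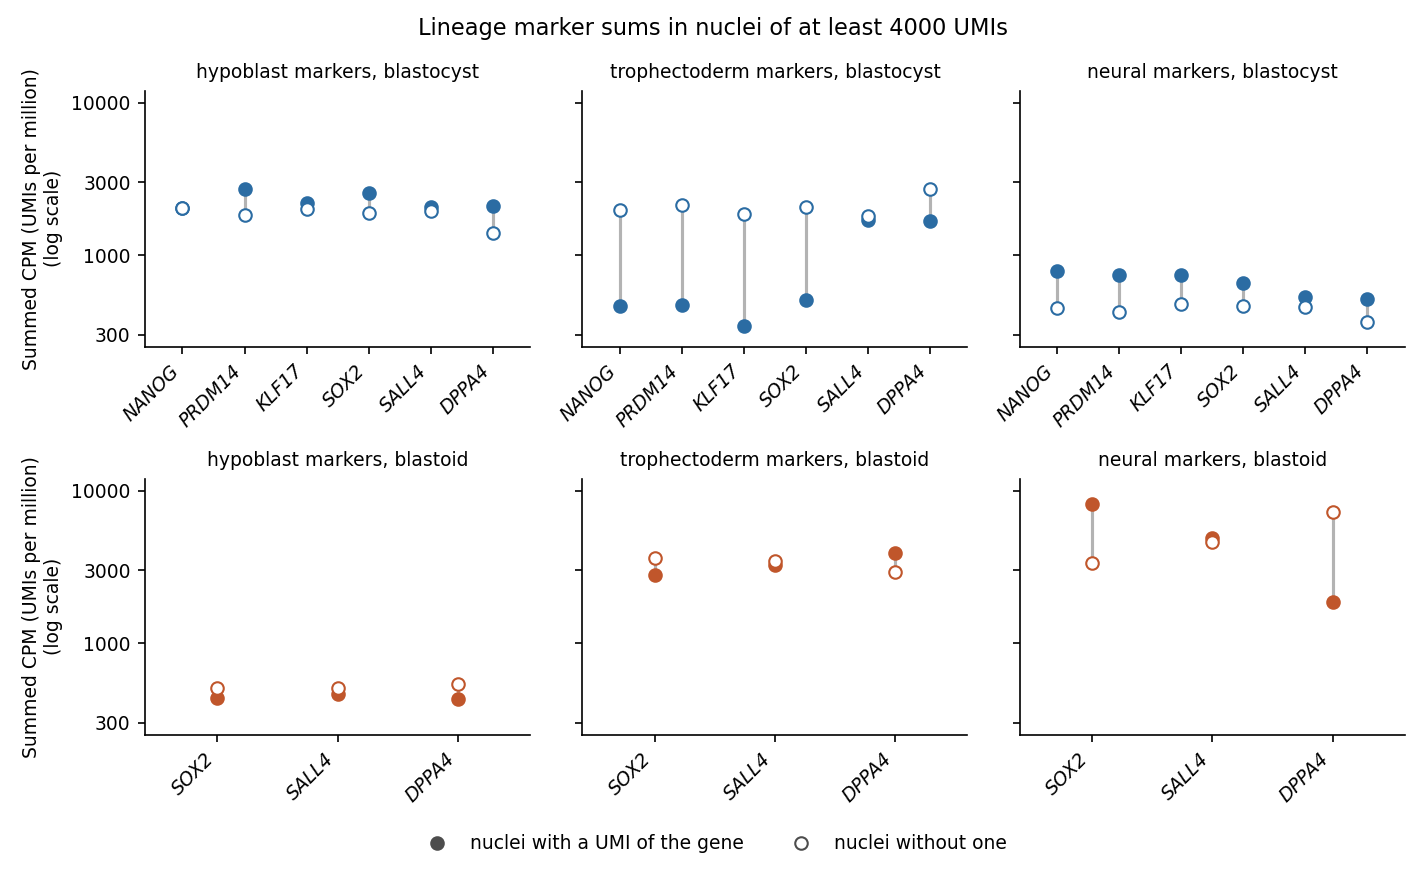
Summed level of the hypoblast, trophectoderm and neural marker lists (CPM, log axis) in nuclei with a UMI of each gene (filled) and without one (open), for genes with at least 20 positive nuclei. In the blastocyst the trophectoderm sum is lower with NANOG (464 against 1987 CPM), and in the blastoid the neural sum is higher with SOX2 (8183 against 3356 CPM).

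The genes most alike in distribution were ranked by their level in nuclei with a UMI of the member over nuclei without one, among genes with at least 100 UMIs. For NANOG in the blastocyst these were HMGA2 (354 against 28.5 CPM, 12.4-fold, 10.3 to 15.1), MYO3B (9.93-fold), UPP1 (9.53-fold), TMEFF2 (9.06-fold) and GNG4 (8.23-fold). All 5 are among the 10 leading genes of the HMGA2/GPC4 cluster. For KLF17 the first were MYO3B (7.15-fold, 5.53 to 9.20), TMEFF2 (6.88-fold) and SHC3 (5.31-fold), and for PRDM14 they were TMEFF2 (4.55-fold, 3.19 to 6.53), GAB3 (3.59-fold) and MYO3B (3.45-fold). MYO3B and TMEFF2 were thus among the first 5 for each of NANOG, PRDM14 and KLF17.

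For SOX2 the first 5 differed between the libraries. In the blastocyst they were SLC28A1 (71.3 against 22.9 CPM, 3.11-fold, 2.35 to 4.11), CLDN10, DCK, LFNG and RGS17 (2.54 to 2.64-fold). In the blastoid they were CNTNAP4 (65.5 against 14.0 CPM, 4.66-fold, 3.18 to 6.92), CXXC4, SYT10, CDH7 and GLRA2 (3.83 to 3.99-fold). For DPPA4 in the blastoid the first was CD96 (4.83-fold, 3.01 to 8.08), followed by TFCP2L1, a pluripotency and trophoblast transcription factor (43.4 against 9.15 CPM, 4.74-fold, 2.92 to 8.04). For SALL4 in the blastocyst NANOG itself ranked 4th (32.1 against 14.5 CPM, 2.21-fold, 1.53 to 3.26). Nuclei with a UMI had a higher median depth than those without in each case.

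Across the 7 clusters of both libraries, which differ in library and depth, the level of NANOG on the log2(CPM + 10) scale correlated most with PIGT (r = 0.98), PRDM14 with SHF (r = 0.98), SOX2 with THOC3 (r = 0.97), SALL4 with NKAP (r = 0.99), DPPA4 with MOV10 (r = 0.99) and KLF17 with SPINDOC (r = 0.99). These are the highest of 7094 genes over 7 points and describe these clusters only.

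The other genes of the pluripotency network were read from a list of 40 genes, of which 34 were in the files and 30 had at least 10 UMIs. Of these 30, 12 were at least 2-fold lower in the blastoid nuclei, against 15.2% of all genes, and 5 at least 2-fold higher, against 21.9% of all genes. The median log2 ratio was -0.53, and 0.04 over all genes. Of the transcription factors, 7 of 13 were lower (15.2% of all genes) and 1 was higher (21.9%). OTX2, an epiblast homeodomain factor, had 10 UMIs against 446 and was 29.2-fold lower. Its level was highest in the hypoblast-like cluster of the blastocyst, at 110 CPM. In the trophectoderm-like clusters it stood at 1.24 CPM in the blastoid and 5.64 CPM in the blastocyst. TFCP2L1 (25.1 against 184 CPM, 7.33-fold), NR5A2 (7.21-fold) and ESRRB (43.0 against 186 CPM, 4.33-fold), all associated with naive pluripotency, were lower too. Between the trophectoderm-like clusters alone NR5A2 had the other order, at 12.4 CPM in the blastoid and 4.34 CPM in the blastocyst, while TFCP2L1 stood at 40.9 and 221 CPM and ESRRB at 68.2 and 216 CPM. ZIC2, a zinc finger factor of primed pluripotency and neural tissue, was the one that was higher, at 47.2 against 5.93 CPM (7.96-fold, 5.63 to 11.5).

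Of the signals and receptors, 3 of 8 were lower (15.2% of all genes) and 3 higher (21.9%). IL6ST, the receptor subunit shared by LIF signalling, was at 84.2 against 536 CPM, 6.36-fold lower. It was at like levels in the trophectoderm-like clusters, 85.2 CPM in the blastoid and 80.3 CPM in the blastocyst, and stood at 830 CPM in the hypoblast-like and 681 CPM in the HMGA2/GPC4 cluster of the blastocyst. FGFR1, an FGF receptor, was at 167 against 6.54 CPM, 25.5-fold higher (18.7 to 35.6). It stood at 327 CPM in the DCC/LMX1A cluster, and at 41.8 CPM (blastoid) and 8.68 CPM (blastocyst) in the trophectoderm-like clusters. LEFTY2, a target and inhibitor of NODAL, was 5.18-fold higher (3.55 to 7.74). NODAL itself, the other of the 3 counted as higher, had 14 and 10 UMIs and a ratio of 2.14, with an interval of 0.885 to 5.39 that spanned 1. FGF4, the epiblast signal to the hypoblast, had 0 UMIs in the blastoid nuclei and 7 in the blastocyst nuclei, and in the blastocyst clusters its level was 9.07 CPM in the HMGA2/GPC4 cluster and 0 in the other 3.

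Among chromatin and RNA regulators, 2 of 9 were lower and 1 higher, which is near the shares of 15.2% and 21.9% of all genes. DPPA3, a maternal and germline factor that RefSeq places next to NANOG (assembly ARS-UCD2.0), was down to 4 UMIs in blastoid nuclei against 445 UMIs in blastocyst nuclei, 72.7-fold lower. JARID2, a Polycomb component, was 6.72-fold lower, and LIN28B, an inhibitor of let-7 processing, was at 331 against 94.1 CPM, 3.52-fold higher. DNMT3A, DNMT3B, TET1, TET2, TRIM71 and LIN28A lay within 2-fold.

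Relatives of the 6 genes were read in the same way, and 11 of 26 were lower, against 15.2% of all genes, with a median log2 ratio of -0.54. The 5 that were higher are near the share of 21.9% of all genes. DPPA2, the neighbour and partner of DPPA4 in the same assembly, had 106 and 352 UMIs (24.6 and 53.5 CPM) and was 2.17-fold lower. In the trophectoderm-like clusters it stood at 36.8 and 45.5 CPM. Its order over the blastoid clusters was that of DPPA4, at 36.8 CPM in the trophectoderm-like cluster, 19.3 CPM in the ribosomal-rich group and 8.95 CPM in the DCC/LMX1A cluster. Of the 14 relatives of KLF17, 8 were lower (15.2% of all genes) and 1 higher (21.9%). They include KLF4 (3.26 against 47.7 CPM, 14.7-fold lower) and KLF5 (143 against 636 CPM, 4.45-fold lower), factors of naive pluripotency and of trophectoderm.

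SALL4 and PRDM14 had relatives on the other side. SALL1 was 9.43-fold higher (43.0 against 4.56 CPM) and SALL2 4.92-fold higher in the blastoid nuclei, while SALL3 was 3.12-fold lower. PRDM16, a regulator of neural stem cells among other tissues, was 31.5-fold higher (47.9 against 1.52 CPM), while PRDM1, PRDM2, PRDM4, PRDM10 and PRDM15 lay within 2-fold. Within the blastoid library, the DCC/LMX1A cluster had SALL1 at 88.4 CPM and PRDM16 at 96.9 CPM, against 7.44 and 9.09 CPM in the trophectoderm-like cluster. Of the relatives of SOX2, only SOX15 had at least 10 UMIs, at 3.72 against 7.45 CPM.

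**Figure D5:**
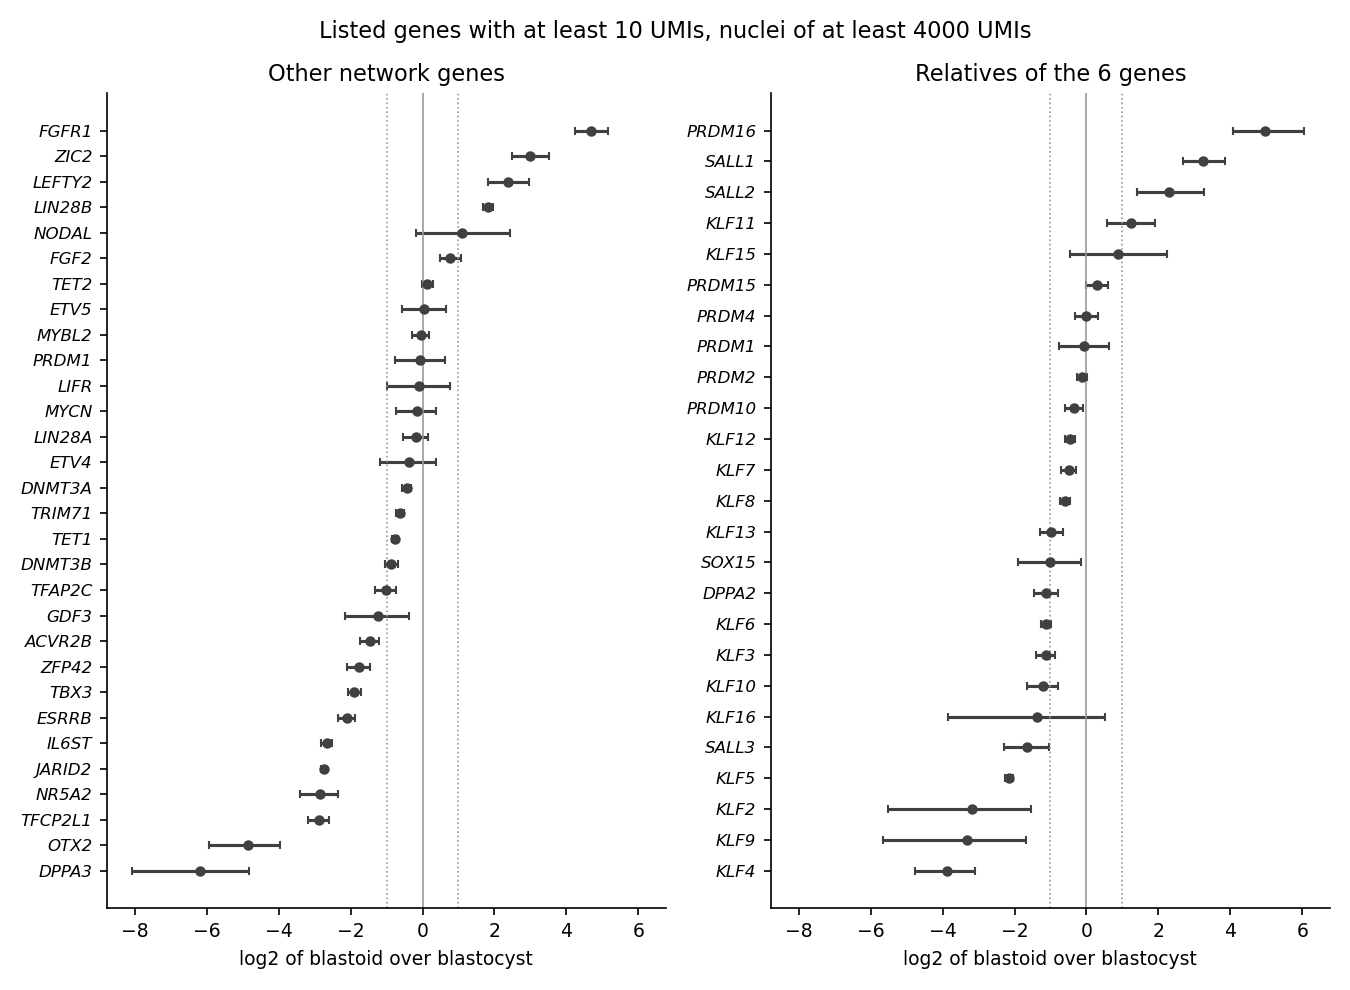
Log2 ratio of blastoid over blastocyst in nuclei of at least 4000 UMIs for the listed network genes and relatives reported here that had at least 10 UMIs, with 95% counting intervals and dotted lines at 2-fold. DPPA3 and OTX2 lie at the low end, and FGFR1 and PRDM16 at the high end.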

How the data were processed

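The deposited files hold UMI counts per gene and barcode, which the authors made, per the file headers, with Cell Ranger 7.2.0, while the submitters' processing notes name Cell Ranger 7.1.0 and Seurat 4.3.0. Genome build, annotation, counting of introns and cell calling are not given in the sources used here, so no coordinates are printed. Symbols came from the deposited feature lists. POU5F1, TDGF1, DPPA5, UTF1, L1TD1, VENTX and SOX3 were not analysed here, and some listed genes are counted in their lists but not reported here by name.

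Barcodes with at least 500 genes and under 10% mitochondrial UMIs (13 genes) were kept, and doublets were removed as the top Scrublet scores (scanpy 1.11.5), 0.8% for each 1000 barcodes, which were 30 blastoid and 6 blastocyst barcodes. Leiden clusters (leidenalg 0.10.2, resolution 0.5) used 2000 variable genes, 30 components and 15 neighbours. A marker counted as raised with at least 100 UMIs in the kept barcodes of its library and at least 1.5 times the CPM of the other clusters. The list totals include markers below that UMI limit. A cluster was named for a blastocyst lineage from at least 3 raised markers, and at least 2 times as many as of another such lineage. Clusters set apart by depth or ribosomal protein share were not named. That rule was set after the clusters were seen. Neural markers were also raised in the hypoblast-like cluster (4) and the DCC/LMX1A cluster (6), and names were not drawn from them.

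Intervals are exact Poisson, Clopper-Pearson or conditional ones (scipy 1.17.1), and counts under 3 were set to 3 for calls, rankings and medians. Genes named are the members, the listed genes, and the 5 (by ratio) or 3 (by correlation) most alike genes. The members and lists were chosen with earlier results of these data known. Steps were tested on simulated data. Alternatives changed depth, filters, doublets, scaling, thinning, clustering and low counts, and 1, a limit of 5% ribosomal protein UMIs, was chosen after seeing the data.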

Additional observations from a re-analysis of the deposited data

How the results depend on the processing

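The count of 5 genes lower and 0 higher in the blastoid was the same under all 7 alternatives. Of the values recomputed, 160 kept within their intervals or counts and 34 moved, with no called value changing sign. At 2000 UMIs the log2 ratio was 0.59 for SOX2 and -3.33 for DPPA4, and over all kept barcodes it was 0.69 and -3.39. For the genes with 1 to 5 blastoid UMIs the alternatives ranged, within the counting intervals, from -4.42 to -3.60 for NANOG, -7.09 to -5.77 for PRDM14 and -6.15 to -5.15 for KLF17. Detection moved with thinning depth. Thinned to 2000 UMIs, blastoid shares were 11.1% for SOX2, 7.81% for SALL4 and 7.71% for DPPA4. Blastocyst shares at that depth were 5.31% for NANOG, 6.37% for PRDM14, 5.05% for SOX2 and 14.9% for SALL4. They were 54.7% for DPPA4, 1.86% for KLF17 and 18.1% for 2 or more genes. The SOX2 share was thus higher in blastoid nuclei at 2000 UMIs, while the main setting gave 8.39% for blastoids and 9.16% for blastocysts. Thinned to 8000, blastoid shares were 14.3% for SOX2, 29.96% for SALL4, 25.7% for DPPA4 and 14.3% for 2 or more genes, and blastocyst shares were 15.3% for NANOG, 20.0% for PRDM14, 15.8% for SOX2, 51.9% for SALL4, 91.4% for DPPA4, 6.75% for KLF17 and 66.8% for 2 or more genes. With at least 100 UMIs fewer relatives were counted, 7 lower and 3 higher. Promoter motifs were not run, since no sequence was used here. No paired analysis was possible because each group has 1 library. Blastoid NANOG, PRDM14 and KLF17 rest on 1 to 5 UMIs, which limits the size of their ratios.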
